A study of Caenorhabditis elegans with 2 samples.

Results

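The genes mog-4, eel-1, mdt-26, tasp-1, K01G5.10, F56G4.6 and wbp-4 lay beside 5 of the strongest thresholded peaks of NHR-120. This protein is a nuclear hormone receptor of the nematode Caenorhabditis elegans, and the assay was chromatin immunoprecipitation followed by sequencing. The 7 genes, of 19973 nuclear protein-coding genes, were chosen by the authors' signal value. They lie nearest, or for K01G5.10 and wbp-4 next nearest, to peaks among the 25 with the highest signal in the joint list. The joint list is the thresholded list of 610 peaks made from both replicates. They stand for 5 peaks because tasp-1 shares its peak with K01G5.10, and F56G4.6 shares its peak with wbp-4. Both samples were whole young adults at 64 hours of the strain OP415, grown from starved first-stage larvae obtained by bleaching. The worms carried the transgene wgIs415, in which the fosmid 91C03 supplies nhr-120 fused to TY1, EGFP and 3xFLAG together with unc-119(+), over the mutation unc-119(tm4063). Chromatin was sheared by sonication to a stated size range of 200-800, and an anti-GFP antibody was used to pull down the tagged receptor. The fusion comes from a fosmid and not from the gene's own place in the genome. The 2 biological replicates form 1 group, no contrast between conditions exists, and the control experiment that the labels name was not analysed here. The files used were peak lists with no read counts, so the depth is unknown.

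A nuclear hormone receptor holds DNA through zinc fingers and regulates transcription from there, often in response to a small molecule, and many members of the family recognise the core AGGTCA. The family is greatly expanded in nematodes, and most of its worm members have no known ligand. A peak of this assay is a place where fragments carrying the tagged protein piled up; it says that the protein was near that DNA, directly or through other proteins, and it does not say that the nearest gene is controlled by it.

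The sequences under the peaks are shown for the peaks on chromosomes II, III and IV, because the peaks differ in how much of their sequence is single-copy. All are given 5' to 3' on the plus strand of the ce11 assembly, and capitals mark GAGAGA, a word of 6 bases discussed further on. For mog-4 and eel-1 the stretch is the side of the peak that lies outside the repeated sequence, except that the first 2 bases shown for the second eel-1 peak still belong to repeated words. The mog-4 stretch (chrII:14561729-14561823, 95 bases) stops 38 bp before the summit, the position of highest signal. The stretch for eel-1 (chrIV:3050347-3050490, 144 bases) runs 11 bp past the summit, and the one for its second peak (chrIV:3050885-3051039, 155 bases) starts 23 bp before that summit. The mdt-26 peak (chrII:5661669-5661932, 264 bases) is shown whole. The tasp-1 stretch (chrIII:10759129-10759306, 178 bases) ends just before the first transcript start of tasp-1.
mog-4: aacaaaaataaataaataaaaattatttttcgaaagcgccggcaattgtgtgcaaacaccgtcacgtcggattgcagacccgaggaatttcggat
eel-1: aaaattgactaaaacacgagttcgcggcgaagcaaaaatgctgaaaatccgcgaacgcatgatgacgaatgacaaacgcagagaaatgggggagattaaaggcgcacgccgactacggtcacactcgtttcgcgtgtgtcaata
mdt-26: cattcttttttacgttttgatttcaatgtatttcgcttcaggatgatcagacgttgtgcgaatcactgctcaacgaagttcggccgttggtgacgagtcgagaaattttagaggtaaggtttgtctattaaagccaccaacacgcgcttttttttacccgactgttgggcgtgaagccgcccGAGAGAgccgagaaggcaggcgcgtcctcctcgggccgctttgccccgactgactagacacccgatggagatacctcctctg
tasp-1: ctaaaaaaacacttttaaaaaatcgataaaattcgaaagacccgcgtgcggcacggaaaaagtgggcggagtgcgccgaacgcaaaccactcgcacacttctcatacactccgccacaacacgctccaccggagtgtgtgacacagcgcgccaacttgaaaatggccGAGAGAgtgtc
eel-1 (second peak): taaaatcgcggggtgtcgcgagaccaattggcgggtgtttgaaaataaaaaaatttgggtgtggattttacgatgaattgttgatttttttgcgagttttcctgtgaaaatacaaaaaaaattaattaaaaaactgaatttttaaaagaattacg

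The signal value is the authors' own measure of each peak's height, on a scale not given in the sources used here; it ranks peaks within 1 list. In the joint list the strongest peak near mdt-26 had a signal of 176 (rank 11 of 610), that of mog-4 170 (rank 13), and that of F56G4.6 and wbp-4 154 (rank 18). The peak of eel-1 had a signal of 146 (rank 23), and that of tasp-1 and K01G5.10 had 141 (rank 25). The last of the 25 peaks is thus the tasp-1 peak itself, and the next peak down the list had 139. These values chose the genes and are given as a description with no test. The median signal was 78.7 over the 610 peaks and 170 over the 25 strongest. In the full ranked list of 115573 peaks the same peaks ranked 37 (mdt-26), 41 (mog-4), 49 (F56G4.6), 55 (eel-1) and 58 (tasp-1). Some ranked peaks of higher signal are thus absent from the joint list and were not among the 25. Of the 25 strongest peaks, 11 had a protein-coding gene as the nearest annotated start, and 8 of these lay within 1 kb of it. The remaining 6 such peaks lay nearest to rpl-3, F44E5.4, ccm-2, eif-3.G, C36E6.8 and rpl-35.

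Having a peak of the joint list nearby was uncommon among coding genes. Of 19973 nuclear protein-coding genes, 592 (2.96%) had a summit of the joint list within 2 kb of a transcript start. All 7 listed genes did, which the choice of genes fixes.

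The summits lay upstream of their genes in every case but that of mdt-26. The mog-4 summit (chrII:14561729-14561992, summit at 14561861) was 262 bp upstream of the start of the longer transcript, between genes; the start of the other transcript lies 8581 bp from the summit, inside the gene. The gene encodes an RNA helicase of pre-mRNA splicing, known in the worm for its part in the germline switch from sperm to oocytes. The eel-1 summit (chrIV:3050347-3050610, summit at 3050479) was 375 bp upstream of the nearest of 3 transcript starts, and 439 and 508 bp upstream of the others. The product of eel-1 is a ubiquitin ligase of the HECT type. For mdt-26, a subunit of the Mediator complex that links transcription factors to RNA polymerase, the summit (chrII:5661669-5661932, summit at 5661801) fell 607 bp downstream of the nearest start. It lay in an intron, 20 bp past the end of an exon that spans 5661710 to 5661781 in 2 of the 3 transcripts. That exon of 72 bases lies wholly inside the peak shown above.

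The other pair of peaks each lay between genes that are transcribed away from each other. The tasp-1 and K01G5.10 summit (chrIII:10759129-10759392, summit at 10759261) was 46 bp upstream of the nearest tasp-1 start and 739 bp upstream of K01G5.10. The other starts of tasp-1 put the summit 124 and 408 bp upstream, and RefSeq's start for the gene is the one at 124 bp. The gene tasp-1 encodes the worm counterpart of taspase, a protease that in mammals cleaves the histone methyltransferase MLL, and RefSeq describes the K01G5.10 product as a haloacid dehalogenase-like hydrolase. The summit shared by F56G4.6 and wbp-4 (chrI:11374312-11374575, summit at 11374444) lay 110 bp upstream of F56G4.6 and 176 bp upstream of wbp-4. RefSeq gives the F56G4.6 product a Rod_C domain, and wbp-4 is the counterpart of a human protein that binds the spliceosome. No other coding gene had a start within 1 kb of any of the 5 summits; the next were ift-43, 1015 bp from the mdt-26 summit, and rnf-113, 1621 bp from the tasp-1 summit. No RNA gene started within 2 kb of them, and 1 pseudogene did, 1879 bp from the eel-1 summit. Of the 610 joint peaks, 605 had the same width of 264 bp with the summit at the centre, so a summit here places a peak rather than a base.

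The strongest peak of each gene was compared with its neighbours in the full ranked list, which holds 115573 peaks down to very low signal. As the genes were chosen for high signal, the contrast is a description. Within 2 kb of a transcript start, 12 ranked peaks were listed for mog-4, 8 for eel-1, 6 for mdt-26, 5 each for tasp-1, K01G5.10 and F56G4.6, and 4 for wbp-4. The median over all nuclear protein-coding genes was 5. The 12 for mog-4 surround 2 starts that lie far apart. Counted once each, these were 37 peaks, and 31 of them were not in the joint list. The signals of those 31 ran from 6.12 to 58.4, with a median of 26.3. Exons held 15 of the 31 summits, introns 13 and sequence between genes 3.

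The distance between the strongest peak and the next one differed among the genes. For wbp-4 the strongest peak had 6.12 times the signal of the next (25.2), and for F56G4.6 5.36 times (28.8). The ratio was 3.19 for mdt-26, whose next peak (55.1) lay 35 bp past its start. It was 2.90 for mog-4, whose next peak (58.4) lay in an intron of the gene, 1351 bp downstream. For tasp-1 and K01G5.10 the ratio was 2.41, and the next peak (58.3) lay in an intron of K01G5.10. The smallest ratio was that of eel-1, 1.51, since its next peak had a signal of 96.7. That second eel-1 peak (chrIV:3050776-3051039, summit at 3050908) lay 804 bp upstream of the gene and ranked 117 in the joint list. Of the 7 genes, only eel-1 had more than 1 peak of the joint list within 2 kb.

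**Figure D1:**
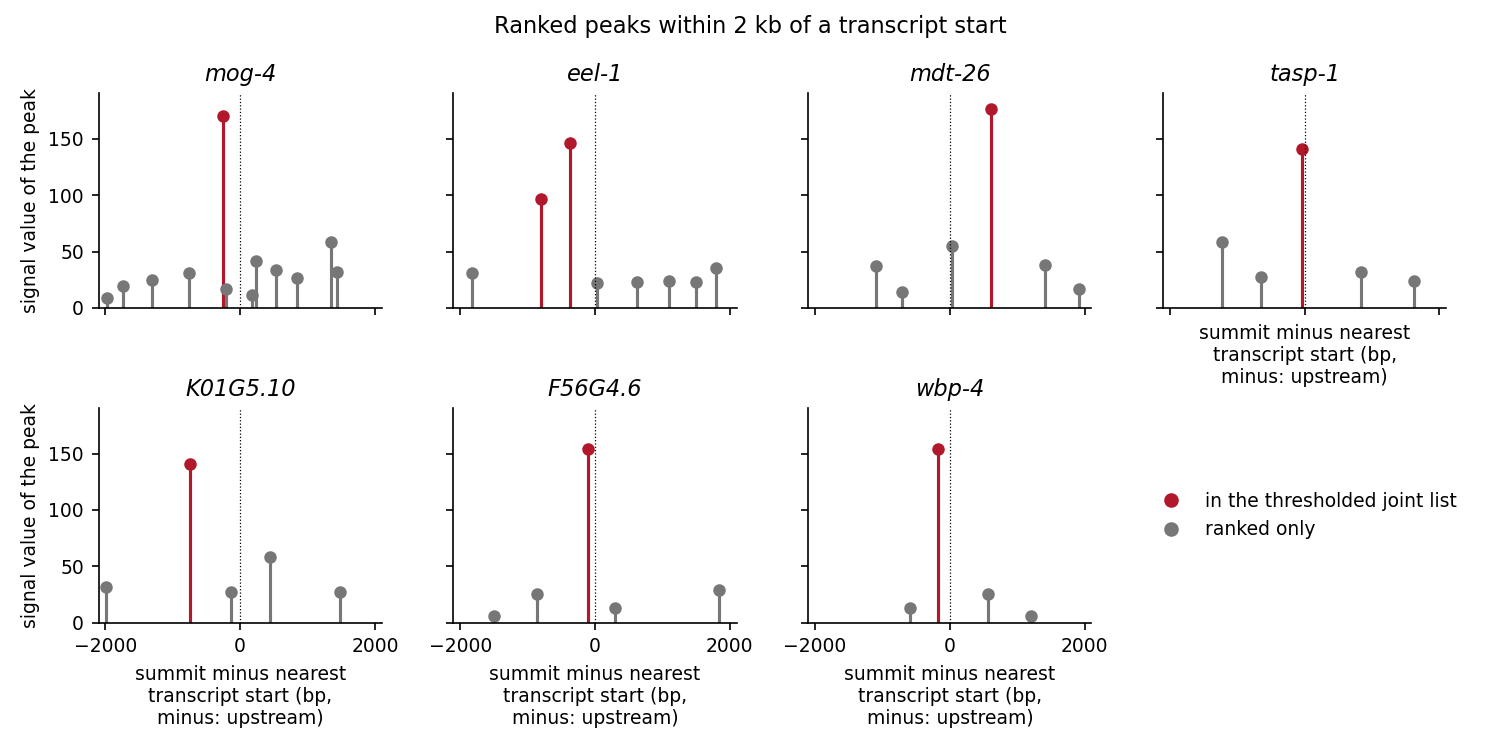
Each stem is a ranked peak whose summit lies within 2 kb of a transcript start of the gene, plotted at its distance from the nearest start in bp (negative values are upstream) with its signal value, in the authors' units, as height. The red stems are peaks of the joint list, 1 for each gene but eel-1, which has 2, and the grey stems, peaks of the ranked list only, stay at or below 58.4.

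Each replicate has its own thresholded list, of 89 peaks for replicate 1 and 96 for replicate 2, and its own ranked list. Every peak of these thresholded lists had a −log10 IDR of at least 2.00 in the replicate's ranked list. The IDR, or irreproducible discovery rate, says how poorly a peak's rank is kept between the lists compared, so a higher −log10 value means a better kept rank. Of the 610 joint peaks, 47 (7.70%) overlapped both replicates' thresholded lists; of the 25 strongest, 24 did, and the exception was the mdt-26 peak. The other 4 peaks, those of mog-4, eel-1, tasp-1 and F56G4.6, were therefore in both lists. As high joint signal chose the genes, that count is no independent support for them.

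The replicates gave unlike heights at mog-4. Its signal was 56.2 in replicate 1 (rank 131 of the replicate's ranked list) and 111 in replicate 2 (rank 28). The replicate 1 value lay below the median of that replicate's thresholded list, 61.3, and the replicate 2 value lay above the corresponding 65.3. At eel-1 the signal was 63.6 in replicate 1 (rank 92) and 87.0 in replicate 2 (rank 44). At F56G4.6 and wbp-4 it was 65.0 (rank 84) and 91.0 (rank 41) in the same order. These 3 peaks thus had a higher signal value and a rank nearer the top in replicate 2. Whether the signals of the replicates' lists are on the same scale is not known.

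At mdt-26 and tasp-1 the replicates were close. The mdt-26 peak had a signal of 84.1 in replicate 1 (rank 48) and 80.3 in replicate 2 (rank 54). Its −log10 IDR was 3.24 in replicate 1 but 1.67 in replicate 2, under the lowest value of that replicate's thresholded list, where it is absent. Its signal there, 80.3, was above the list's median. The tasp-1 and K01G5.10 peak had a signal of 74.2 in replicate 1 (rank 61) and 68.5 in replicate 2 (rank 81). The second eel-1 peak had 50.2 and 53.9, below both medians, and −log10 IDR values of 1.05 and 0.968, and it was in neither replicate's thresholded list. In the joint lists its −log10 IDR was 3.02 and its −log10 q 1.06. The −log10 q values of the 5 stronger peaks ran from 0.822 to 0.885, so the second eel-1 peak had the lowest q.

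A second joint ranked list holds a pair of signal columns for each peak. At all 6 peaks the first value equalled the signal of replicate 1's own peak and the second that of replicate 2's. The log2 ratio of the second to the first was 0.98 at mog-4, 0.49 at F56G4.6, 0.45 at eel-1, 0.10 at the second eel-1 peak, -0.07 at mdt-26 and -0.11 at tasp-1. Over the 608 joint peaks with such a pair, the middle 50% of ratios ran from -0.23 to 0.48 around a median of 0.13. The mog-4 and F56G4.6 ratios lay above that range and the others within it. With 2 replicates no error can be put on a single ratio.

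The replicates placed the summits close together. The mog-4 summit of replicate 1 was 3 bp from the joint summit and that of replicate 2 was at 0 bp. For mdt-26 the shifts were 30 and 14 bp in opposite directions, the widest of the 5 strongest peaks. The summit of the second eel-1 peak shifted by 33 bp in replicate 1 and 3 bp in replicate 2.

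**Figure D2:**
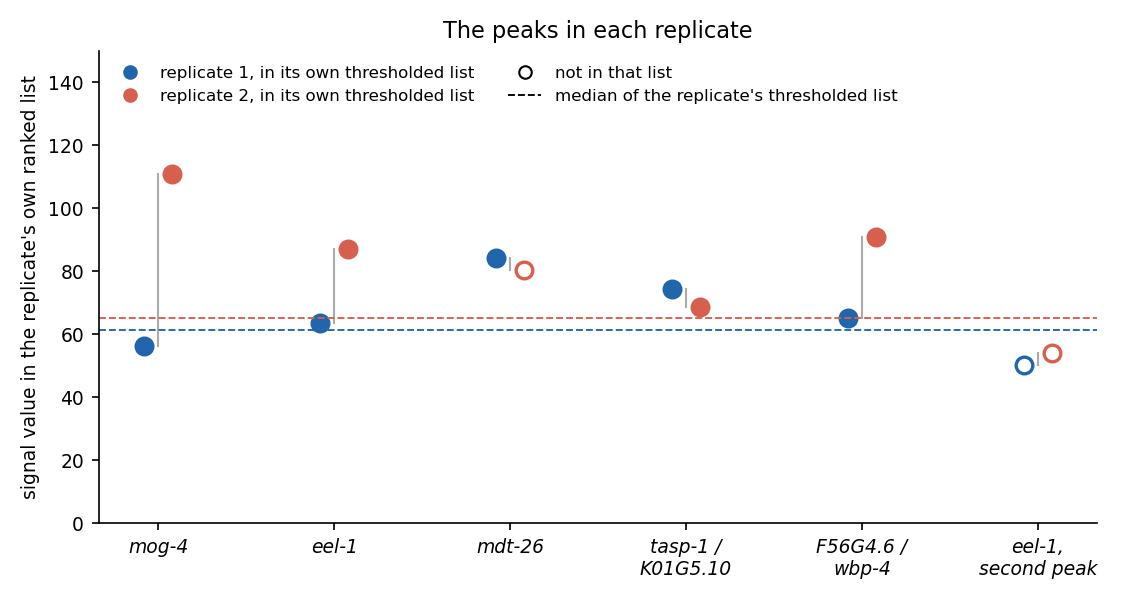
Points give the signal value of each peak in the ranked list of replicate 1 (blue) and replicate 2 (red), in the authors' units, joined by a grey line; filled points are in that replicate's thresholded list, open points are not, and dashed lines mark the medians of those lists (61.3 and 65.3). The mog-4 values of 56.2 and 111 lie farthest apart, and mdt-26 is open in replicate 2 only.

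Repeated sequence split the 5 peaks. A peak of 264 bases holds 235 words of 30 bases, and a word was called repeated if it occurs at more than 1 place of the genome on either strand. At mog-4 and at eel-1, 80 of 235 words were repeated (34.0%), and at the second eel-1 peak 82 of 235 (34.9%). At mdt-26, tasp-1 and F56G4.6 no word was repeated, and a sequence search with each of those peaks found no match but the peak itself. Of the 610 joint peaks, 324 held no repeated word and 152 (24.9%) held at least 25% repeated words; of the 25 strongest, 9 (36.0%) did. The 6 other peaks of the 25 that lie nearest to coding genes were of both kinds too, with 3 that held repeated words, up to 99.6% at C36E6.8. A read that lies wholly inside a repeated word cannot be placed by its own sequence. Whether longer reads that cover such words could be placed was not tested. How the authors placed reads from repeated words is not given in the sources used here.

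At mog-4 the repeat covers the summit. Its first stretch is 103 bases long (chrII:14561824-14561926), from 37 bp before to 65 bp after the summit, and starts at the base that follows the printed mog-4 sequence. The words in it occur at 9 places at most, with a median of 7. Repeated sequence goes on past the right edge of the peak, on the side away from the gene. A weaker ranked peak farther upstream, 1306 bp from the start with a signal of 24.8, held 75.7% repeated words. At identity and length of at least 90%, the stretch of 103 bases had 7 other matches, on 4 chromosomes with its own, at 96.0 to 100% identity.

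At eel-1 the repeat begins beside the summit. Its first stretch is 107 bases long (chrIV:3050491-3050597), from 12 to 118 bp past the summit, and its words occur at up to 65 places with a median of 52. The same search gave it 54 other matches, on 6 chromosomes, at 92.8 to 99.0% identity. The eel-1 repeat is thus in more places than the mog-4 repeat.

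**Figure D3:**
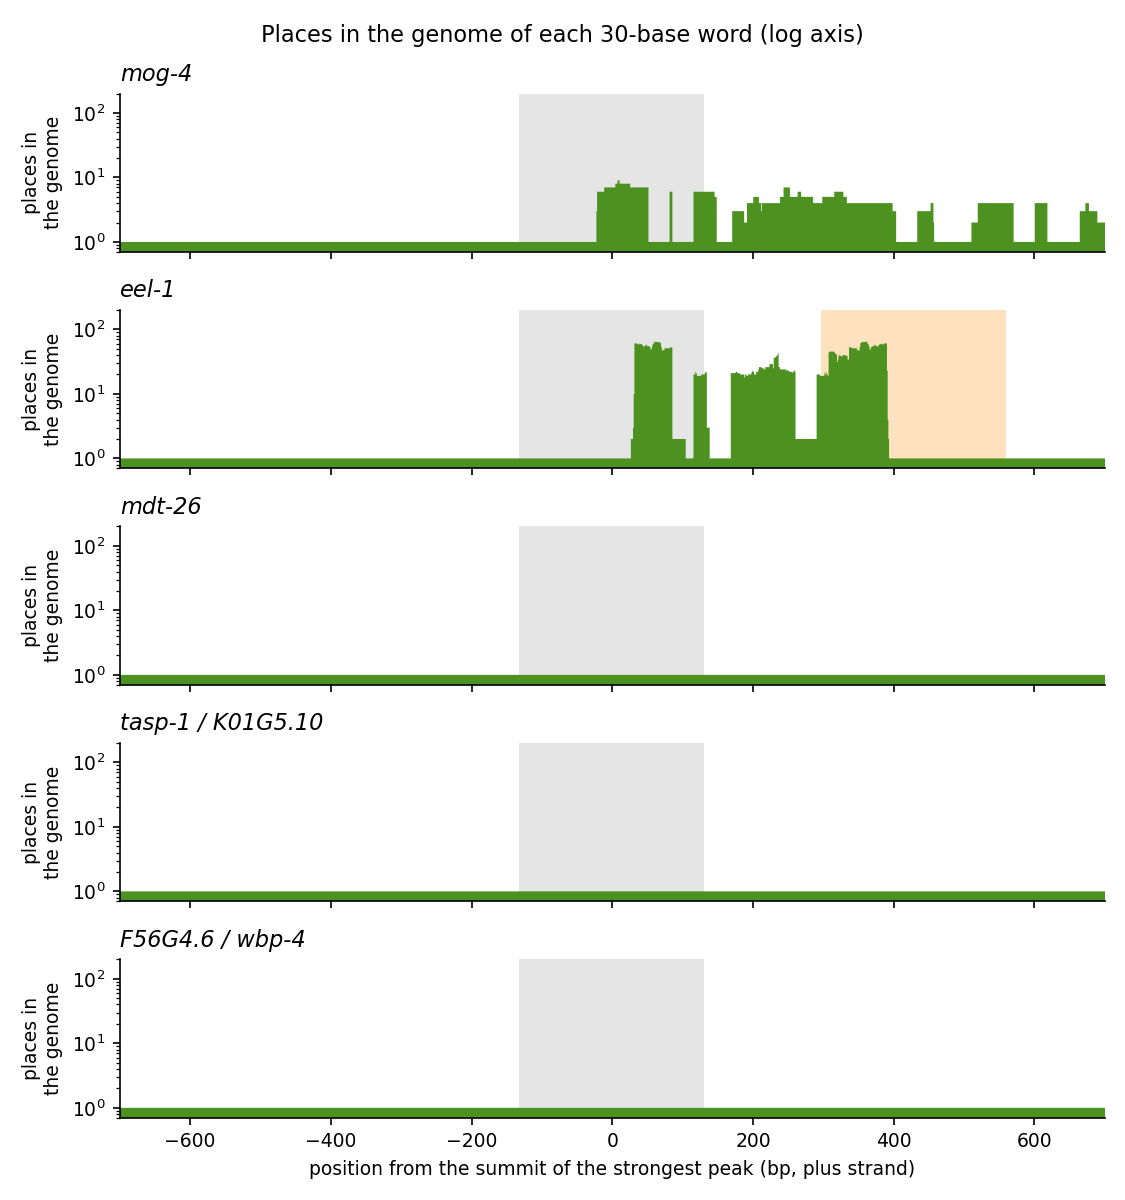
For each of the 5 strongest peaks, the green area gives the number of places in the genome (log axis) of the 30-base word centred at each position, in bp from the summit along the plus strand; grey marks the peak and orange the second eel-1 peak. Words at mdt-26, tasp-1 and F56G4.6 stay at 1 place inside the peak, those at mog-4 reach 9, and those at eel-1 reach 65.

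The mog-4 and eel-1 repeats were not the same sequence. The peaks shared 0 words of 30 bases on either strand, 0 of 20 and 0 of 15, and the windows of 500 bp either side of the summits shared 0 words of 30. Equal shares of 34.0% thus came from different words. No other pair among the 5 peaks shared a word of 15 bases either. The only shared sequence was between the peaks of eel-1.

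The peaks of eel-1 share an inverted repeat. They had 54 words of 30 bases in common, all on opposite strands. The longest exact block was of 83 bases (chrIV:3050496-3050578) in the first peak, which returned, base for base, as the reverse complement in the second (chrIV:3050801-3050883). The match went on toward the middle past 1 mismatch, which gave arms of 129 bases (chrIV:3050496-3050624 and chrIV:3050755-3050883) with 130 bases between them. The arms ran 14 bp past the inner edge of the first peak and 21 bp past that of the second. Both joint summits, 429 bp apart, lay just outside the arms. The first was 17 bp before the left arm and the second 25 bp after the right arm. Replicate 1 placed the second summit 33 bp to the left of the joint position, inside the right arm. The printed eel-1 sequences are the flanks on which the joint summits lie. Between the peaks, 83.8% of the words in 165 bases were repeated, at up to 43 places.

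A unit of 10 bases recurs in the arms. The unit cgaaaagggg, picked after the sequence was seen, occurs 6 times in each arm of 129 bases, and 4 of the 6 lie in the exact block. Within the peaks themselves it occurs 6 times in the first on the plus strand and 5 times in the second on the minus strand. The median spacing in the first peak was 15 bases. It was found at 571 places in the whole genome, and in 3 of the 610 joint peaks (0.492%), which are both eel-1 peaks and 1 more.

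**Figure D4:**
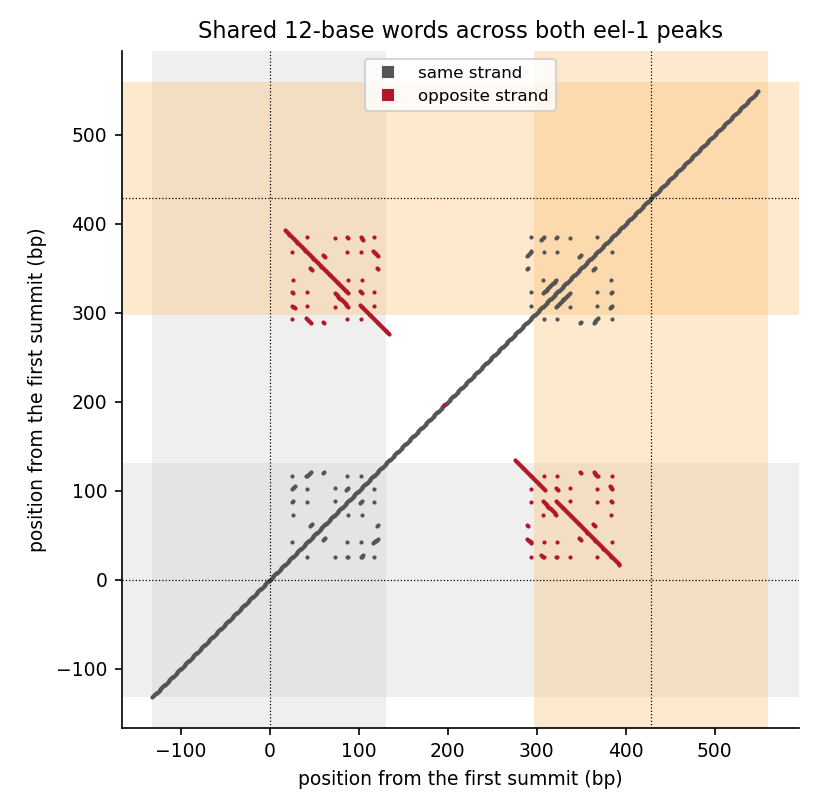
The stretch across both eel-1 peaks is plotted against itself, in bp from the first summit on both axes; each dot is a shared 12-base word on the same strand (grey) or on opposite strands (red), with the first peak shaded grey, the second orange and the summits as dotted lines. The longest red diagonal is the exact block of 83 bases, and its continuation after a break completes the arms of 129 bases. Shorter red marks lie beside it, and each joint summit lies outside the arms.

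Other places with the same words had lower peaks than mog-4 and eel-1. A place here is a stretch in which neighbouring shared words start within 300 bp of each other. Word occurrences and sequence matches were counted 1 by 1 above, so a stretch with both arms could count more than once there. Words of the mog-4 peak were found at 8 other places, and 7 of these had a ranked peak, with a highest signal per place from 2.38 to 58.0 and a median of 27.9, against 170 at mog-4. In 1 of the 8 the peak was in the joint list, 1174 bp upstream of imb-3, with a signal of 58.0 and 18 of its 235 words shared with mog-4. Words of the eel-1 peaks were found at 44 other places, of which 38 had a ranked peak, from 4.43 to 79.7 with a median of 33.6, against 146 at eel-1. Again 1 place had a joint peak, 268 bp downstream of the start of spd-5, with a signal of 79.7 and 56 shared words. The comparison is a description, since mog-4 and eel-1 were chosen for high signal and the other places were not. How often places without these words hold a ranked peak was not counted. The 7 of 8 and 38 of 44 therefore have no background share beside them.

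**Figure D5:**
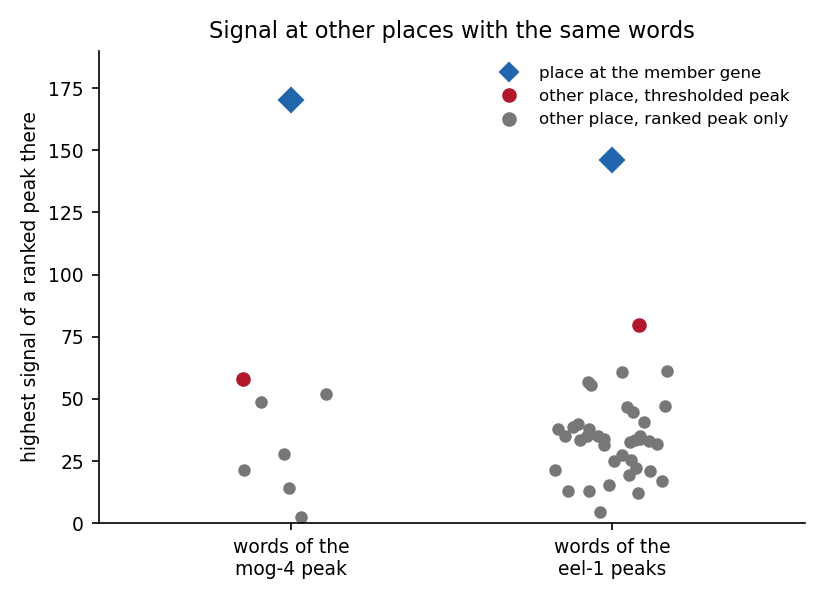
For words of the mog-4 peak and of the eel-1 peaks, each point is a place in the genome that holds such words and has a ranked peak, at the highest signal value found there, in the authors' units; points are spread sideways for legibility. The places at mog-4 (170) and eel-1 (146) are blue diamonds, and the other places reach 58.0 and 79.7, both in the joint list (red).

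The base composition differed among the peaks. The GC content was 36.4% at F56G4.6, 41.3% at mog-4, 49.2% at eel-1, 50.8% at tasp-1 and 51.1% at mdt-26, and 39.4% at the second eel-1 peak. The joint list had a median of 45.3%, and 25% of its peaks lay below 40.9%, as the F56G4.6 peak and the second eel-1 peak did.

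Short words were searched on both strands of each peak. The receptor core AGGTCA occurred once, in the tasp-1 peak, 56 bp past the summit and beyond the printed stretch. It was in 9.02% of joint peaks and in 7.12% of ranked peaks of the same width. GAGAGA, the capitals in the printed sequences, occurred once at mdt-26, 52 bp past the summit, and once at tasp-1, 37 bp past it. It was in 25.4% of joint peaks and 14.5% of ranked ones. Neither TATAAA (16.9% of joint peaks) nor CACGTG (5.41%) was found in any of the 5 strongest peaks or in the second eel-1 peak. These words do not overlap one another in these peaks, and a match is only a match of letters.

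Genes in the same complex, process or family as a listed gene mostly had no joint peak within 2 kb. The share with one was 7.41% for Mediator, 5.56% for germline sex determination and 13.8% for the spliceosome. It was 37.5% for HECT ubiquitin ligases and 18.2% for H3K4 methylation. All were above the 2.96% among all coding genes. These shares and each count that follows include the listed genes themselves, which their choice fixes. Of 27 Mediator genes, 2 had a joint peak, mdt-26 and mdt-4. The mdt-4 peak, at the gene of a core subunit, had a signal of 88.5 at 1392 bp downstream of the start. The 26 Mediator genes other than mdt-26 with a ranked peak had a median strongest signal of 40.6, and all coding genes with such a peak had 40.2. Of 18 genes of germline sex determination only mog-4 had a joint peak, and the median of the others was 45.1. The related mog-1, mog-2, mog-3 and mog-5 had their strongest ranked peaks at 58.5, 48.4, 58.2 and 49.7.

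The remaining lists held a few more. Of 29 spliceosome genes, 4 had a joint peak: mog-4, wbp-4, prp-19, a ubiquitin ligase of the spliceosome (107, 596 bp upstream), and repo-1 (63.4, 1093 bp downstream). The 26 with a ranked peak other than mog-4 and wbp-4 had a median strongest signal of 41.2. Of 8 HECT ubiquitin ligase genes, 3 did: eel-1, wwp-1 (102, 272 bp upstream) and herc-1 (83.6, 1458 bp upstream). The 7 other than eel-1 had a median of 51.1, above the upper quartile of all coding genes with a ranked peak, 48.6. Of 11 genes of histone H3K4 methylation, 2 did: tasp-1 and set-16, the worm MLL-type methyltransferase, with a signal of 129 at 157 bp upstream. The 10 other than tasp-1 had a median of 48.9, also above that quartile. Each strongest signal was taken over all transcript starts of a gene, and the number of starts was not matched in these comparisons. The lists were put together with earlier results of these data known, so the counts stand as descriptions.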

How the data were processed

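Peak lists for 2 biological replicates of 1 group were used, on the ce11 assembly per the labels. The deposited lists give a signal value, a −log10 q value and a summit per peak; the ranked lists also give a −log10 IDR, and 1 of them a pair of signal columns. Signal tracks were not used. No aligner or peak caller is named in the sources used here, nor whether a control entered the peak calls. Summits were set against transcript starts of Ensembl release 115 (WBcel235), and words of 30 bases were counted on both strands of the RefSeq genome of that assembly, from which the sequences come. Matches were found with BLAST+ 2.17.0 (E-value limit 1e-10), and the rest was computed with Python 3.11.15, numpy 2.4.6 and pandas 2.3.3. Overlap meant at least 1 bp. Word counting was tested on simulated data. Genes were named if listed, within 1 kb of a listed gene's summit, or in a gene list with a joint peak within 2 kb; further names (neighbouring genes, repeat places, related mog genes) were added after their values were seen. The genes and lists were chosen with earlier results of these data known, and no test was made. In the paired columns, 48.0% of 114571 rows carried an interval and signal of replicate 1's list in the first column, and 47.4% those of replicate 2's in the second; replicate values were read from each replicate's own list. No sequence is printed for bases in transcribed untranslated ends, nor for words that also occur on a chromosome left out of printing. Read counts were not used, so precision rests on 2 replicates.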

Additional observations from a re-analysis of the deposited data

How the results depend on the processing

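Of 21 alternative settings over 8 results, 16 left the value equal or close (a count within 1.5 times) and 5 moved it. The median signal of the 7 genes' strongest peaks, 154, ran from 65.0 to 87.0 when 1 replicate was left out, the values being then those of the other replicate's own list. The median share of repeated words, 0%, was 8.16% with words of 20 bases, the value of the F56G4.6 peak, while mdt-26 stayed at 0. The count of ranked peaks within 2 kb, 37, was 21 within 1 kb. The median log2 ratio of the paired columns, 0.45, was 0.42 after scaling each column by its median. The number of genes with a joint summit nearby was 7 within 1 kb and 5 within 500 bp. The number of genes whose peak was in both replicates' lists was 6. With 1 replicate left out, only presence in the other's list was counted, which gave 6 to 7. That count cannot be lower than the number in both lists, although these settings are among the 16. The mog-4 and eel-1 peaks shared 0 words in each of the 3 alternatives. No paired analysis was possible because the series has 1 group. The number of replicates, the unknown depth and the unknown placing of repeated reads limit the mog-4 and eel-1 values.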
